A study of Mus musculus with 18 samples.

Results

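The cytosolic ribosomal protein genes encode the proteins of the large and small subunits of the ribosome that translates nuclear messages. They were taken from the annotation as the protein-coding genes whose symbols begin with Rpl or Rps and a number, together with Rpsa, Rplp0, Rplp1 and Rplp2, leaving out pseudogenes, the S6 kinases and the mitochondrial ribosomal proteins. The rule found 86 of the 46078 genes in the count table. Of these, 46 encode large subunit proteins and 31 small subunit proteins. Another 7 are paralogs of such genes, and 2, Rpl7l1 and Rps19bp1, carry a related symbol but act in ribosome assembly or bind a ribosomal protein. The annotation called each of them protein-coding, and 83 had enough counts in enough libraries (edgeR's filterByExpr, minimum count 10) to be tested.

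A ribosome needs its proteins in equal numbers, and their genes are known as a group transcribed steadily and together. Many of their messages start with a run of pyrimidines, which lets the kinase mTOR and the RNA-binding protein LARP1 hold back or release their translation. Lymphocytes that leave rest are known to make more ribosomes before they divide.

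RNA was measured in libraries of 200 sorted cells, amplified as full-length cDNA with SMART-seq chemistry, from C57BL/6 mice 8 weeks old. There were 3 libraries in each of 6 groups. The groups were spleen type 1 innate lymphoid cells (ILC1s) from RARα403 mice and from control mice, liver ILC1s from RARα403 mice and from control mice, and liver natural killer (NK) cells from RARα403 mice and from control mice. All of the mice carried Ncr1-Cre, in which the promoter of the NKp46 gene drives Cre recombinase, and the labels give the controls as Ncr1-Cre alone. RARα403 mice also held Rosa26-RARα403, from which Cre switches on a truncated, dominant-negative retinoic acid receptor α in NKp46-expressing cells. All cells were sorted as lacking CD3 and bearing NK1.1 and NKp46. ILC1s were those with CD49a and the IL-7 receptor and little CD49b, and NK cells those with CD49b and no CD49a. Nothing in the labels ties libraries to animals, so p-values measure the spread between libraries, which may in part be technical.

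The libraries held 3452279 to 9038767 counts. Of the populations, the summed level of 9 ILC1 markers was 1977 to 4033 CPM (counts relative to library size, scaled by TMM factors) in the ILC1 groups and 102 to 507 CPM in the NK cell groups, so the markers went with the labels. The summed level of 10 NK cell markers was 1241 to 3616 CPM in the ILC1 groups. Liver NK RARα403 library 1 stood apart. Its NK cell markers summed to 5888 CPM, against 12308 to 16549 CPM in the other NK cell libraries. It also held the 507 CPM of ILC1 markers, and its T cell markers summed to 1478 CPM, against 649 to 815 CPM in the other NK cell libraries. Ribosomal RNA genes and a few genes counted with them took 3.55% of its counts, against 0.155 to 0.387% in the other 17 libraries. The set included mitochondrial ribosomal RNA and, among the added genes, the protein-coding Lars2. Results that rest on this library are given with it, and in part also without it. In bulk libraries of this kind, fewer cells of a type and less RNA per cell cannot be told apart.

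Levels differed widely between the ribosomal protein genes. Divided by the length of all annotated exons, and averaged over the 17 libraries without liver NK RARα403 library 1, the 83 tested genes lay between 2.50 and 777 CPM per kilobase. Their median was 65.1 CPM per kilobase, with quartiles of 31.3 and 114. The small subunit genes had a median level of 84.9 CPM per kilobase and the large subunit genes one of 65.9.

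High levels were found in small and large subunit genes alike. Rps3a1 on chromosome 3, a small subunit gene, had the highest level, at 777 ± 121 CPM per kilobase (SD over 17 libraries). Rpl4 on chromosome 9 (chr9:64173375-64178666 in GRCm38), a large subunit gene, had 449 ± 62.8 CPM per kilobase. Rpl13 on chromosome 8 followed with 400 ± 97.2 CPM per kilobase. Rplp0, the base of the ribosomal stalk that recruits elongation factors and a common reference gene, had 392 ± 114 CPM per kilobase. The step down from Rps3a1 to Rpl4 was larger than these SDs, while Rpl4, Rpl13 and Rplp0 lay within an SD of each other.

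The 5 lowest levels were those of Rps15a, Rpl22l1, Rps12, Rpl35a and Rpl24, at 13.3 ± 5.71, 12.2 ± 4.40, 7.81 ± 2.43, 7.72 ± 3.63 and 2.50 ± 1.67 CPM per kilobase. Rpl24 encodes a protein of the large subunit at the face between the subunits, and it had only 0 to 41 counts per library. The message of this gene is hard to assign: 80.1% of the stretches of 100 bases in its main transcript also occur in transcripts of 4 other genes. Over the 86 genes the median share of such stretches was 31.2%, with over 50% shared in 26 genes and none shared in 9. Genes with shared stretches are uncertain in level, since the sources used here do not give the authors' treatment of reads that align at several places. With the main transcript as the length, Rpl13 had the highest level, at 1331 CPM per kilobase, 4 of the 5 highest genes stayed among the 5 highest, and of the 5 lowest only Rps15a and Rpl24 stayed among the 5 lowest.

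**Figure D1:**
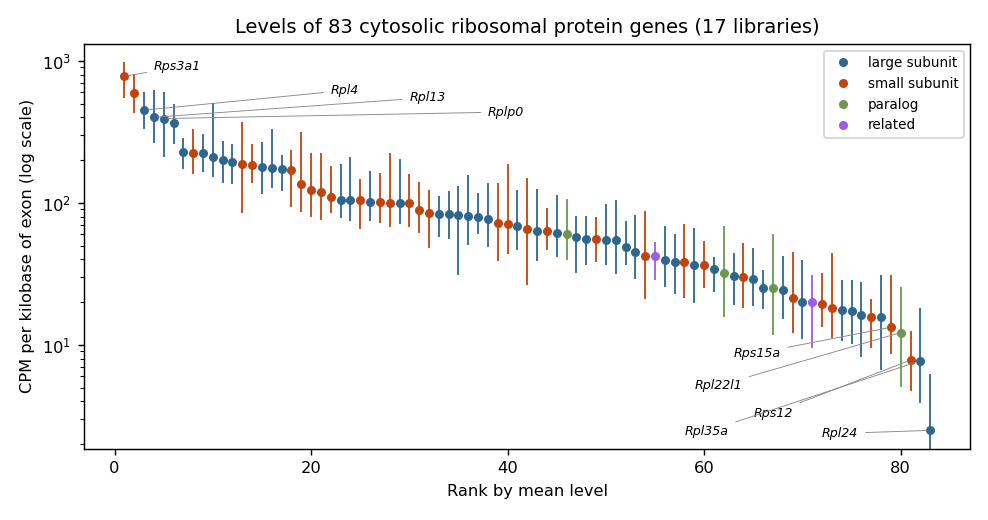
Levels of the 83 tested ribosomal protein genes, ordered by rank, as mean CPM per kilobase of exon on a log scale; lines run from the lowest to the highest of 17 libraries (liver NK RARα403 library 1 left out). Means fall from 777 CPM per kilobase for Rps3a1 to 2.50 for Rpl24, and large and small subunit genes are mixed along the order.

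The paralogs divided into those present beside their partner and those near or at 0. Rpl22l1 is the paralog of Rpl22, a large subunit gene needed for αβ T cell development in mice. Rpl22l1 had 10, 23.0 and 19.2 CPM in spleen ILC1s of RARα403 mice, against 50.5, 25.1 and 22.0 CPM in control spleen ILC1s, and the libraries overlapped. In liver ILC1s the 2 genotypes had almost the same values, 28.8, 23.2 and 19.5 CPM in RARα403 libraries and 30.7, 23.5 and 19.7 CPM in control libraries. In liver NK cells Rpl22l1 had 0, 29.0 and 16.5 CPM in RARα403 libraries and 20.5, 32.6 and 18.9 CPM in control libraries. The 0 was in library 1, where 3 counts would be 0.496 CPM. Per kilobase of exon Rpl22l1 reached 0.612 to 1.06 times the level of Rpl22 in the group means, with SDs of 0.069 to 0.688 within groups, so no order of the groups stood out beyond their spread. With the main transcripts as the length the group means were 1.55 to 2.68. Whether the paralog or Rpl22 was higher thus depended on the length used.

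Rps27l, a paralog of the small subunit gene Rps27 and a known target of p53, ran at 0.277 to 0.475 times the level of Rps27 per kilobase of exon in the 6 group means. With the main transcripts as the length this was 0.150 to 0.257 times. Of the 100-base stretches of Rps27, 98.4% also occur in other genes, so ratios to it are uncertain. In spleen ILC1s Rps27l had 35.1, 23.6 and 17.8 CPM in RARα403 libraries, against 22.3, 14.5 and 9.52 CPM in control libraries. In liver ILC1s it had 21.2, 15.0 and 9.88 CPM in RARα403 libraries, against 49.3, 20.3 and 14.7 CPM in control libraries. The direction thus differed between the organs, but the libraries overlapped in each. The difference between the 2 effects was 1.6 ± 0.83 on the log2 scale (SE), higher in spleen, with an adjusted p of 1.0 by edgeR's quasi-likelihood test.

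Rps27rt, a retrotransposed copy of Rps27 with 89.5% of its stretches of 100 bases shared with other genes, ran at 0.372 to 0.551 times the level of Rps27 per kilobase of exon in the group means. With the main transcripts as the length it ran at 0.123 to 0.182 times. Rpl36al is a retrotransposed copy of the X-linked Rpl36a that is expressed in its own right, and it exceeded its parent at 3.02 to 4.28 times the level per kilobase of exon. By the length of the main transcripts these ratios were 0.933 to 1.32, so whether the copy or the parent was higher depended on the length used. The ratio is also uncertain because 83.6% of the 100-base stretches of Rpl36a, and 21.7% of those of Rpl36al, occur in other genes. Rpl10l, an autosomal copy of the X-linked Rpl10 used in male germ cells, had 0 counts in all 18 libraries, where 3 counts would be 0.332 to 0.869 CPM. Rpl39l, the germ-cell paralog of Rpl39, had counts in 5 libraries, at 3 to 50, and Rpl3l, the muscle paralog of Rpl3, had 4 to 6 counts in 3 libraries. The partners Rpl10, Rpl39 and Rpl3 were present in every library, and Rpl3 ranged from 207 to 866 CPM. Rps4x, the X-linked small subunit gene, had 199 to 426 CPM. Rpl7l1, a factor of ribosome assembly related to Rpl7, had 66.9 to 184 CPM, and Rps19bp1, a binding partner of Rps19, had 10.2 to 47.4 CPM.

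As a whole, the 86 genes took 0.692 to 2.42% of the counts of a library. In spleen ILC1s the share was 1.90, 1.45 and 1.47% in RARα403 libraries, against 2.11, 1.53 and 1.58% in control libraries. In liver ILC1s it was 1.6, 1.49 and 1.63% in RARα403 libraries, against 2.42, 1.58 and 1.23% in control libraries. In liver NK cells it was 0.692, 1.79 and 1.34% in RARα403 libraries, against 1.83, 1.45 and 1.11% in control libraries. The genotypes overlapped in all 3 populations, and in each control group library 1 was the highest. The group means were 1.6 ± 0.255% in RARα403 spleen ILC1s and 1.74 ± 0.319% in control spleen ILC1s, 1.57 ± 0.0745% in RARα403 liver ILC1s and 1.74 ± 0.612% in control liver ILC1s, and 1.27 ± 0.550% in RARα403 liver NK cells and 1.46 ± 0.357% in control liver NK cells (SD, n = 3 each). Without library 1 the RARα403 liver NK cells averaged 1.56 ± 0.312% (n = 2). Small subunit genes took 36.5 to 41.6% of these counts.

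The description codes of the samples open with a 1 or a 2, and the labels do not say what this number stands for. In control libraries the share was 1.83 to 2.42% in the 3 whose code opens with 1 and 1.11 to 1.58% in the 6 whose code opens with 2, with no overlap. In RARα403 libraries other than liver NK library 1, it was 1.6 to 1.90% in the 2 whose code opens with 1 and 1.34 to 1.79% in the 6 whose code opens with 2. The part of this number in the differences between groups was not tested beyond the fits with it as a term.

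**Figure D2:**
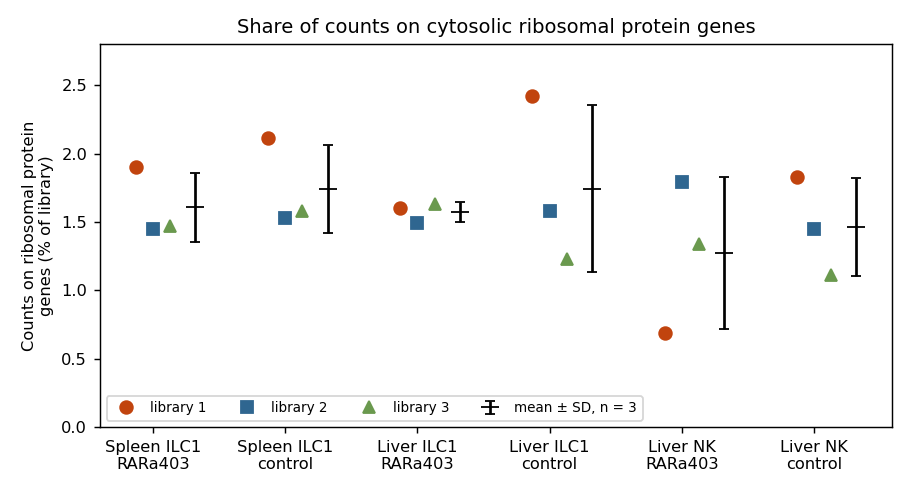
Percent of each library's counts on the 86 ribosomal protein genes, by group, with RARα403 left of control; symbols are libraries 1, 2 and 3 and bars are the mean ± SD (n = 3). Library 1 is the highest in all 3 control groups (1.83 to 2.42%), and liver NK RARα403 library 1 is the lowest of all at 0.692%.

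The ribosomal protein genes moved together from library to library within a group. Their median SD of log2 CPM within groups was 0.38, the same as that of 6022 other genes at like levels. Once the median of the ribosomal protein genes in each library was taken off, their median SD fell to 0.20, while that of the other genes stayed at 0.38 when their own library median was taken off. TMM scaling already keeps the median of so large and mixed a set near level between libraries. The figure for the other genes could therefore hardly fall. The movement was not of the same size for every gene. In liver ILC1 control library 1 the genes sat at a median of 0.62 above the group mean on the log2 scale, and in control library 3 at 0.45 below it (-0.45). The SD of these deviations over the genes was 0.332 in the first and 0.246 in the other. In that first library 58 of the 83 genes lay above all other libraries.

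Other short messages moved in the same direction. The median deviation of 68 other coding genes with transcripts under 700 bases and a mean of at least 5 log2 CPM was 0.39 in liver ILC1 control library 1 and -0.24 in control library 3. That of 2803 coding genes with transcripts over 3000 bases was -0.15 and 0.11 in those libraries. In liver NK control libraries 1 and 3 the ribosomal protein genes deviated by 0.40 and -0.39 and the short genes by 0.23 and -0.12. In spleen ILC1 control library 1 the ribosomal protein genes deviated by 0.28 and the short genes by 0.30. Liver ILC1 control library 1 also held the highest summed level of hepatocyte markers in its group, 274 CPM over 9 genes against 14.0 and 25.1 CPM in the other 2 libraries, and of red blood cell markers, 2317 CPM over 6 genes against 0 and 0.217 CPM. High values of these markers occurred both with and without high ribosomal protein genes. Red blood cell markers summed to 2387 CPM in spleen ILC1 RARα403 library 3 and 1102 CPM in liver ILC1 RARα403 library 1, where the ribosomal protein genes deviated by -0.12 and -0.01. Hepatocyte markers summed to 268 CPM in spleen ILC1 RARα403 library 1, where the ribosomal protein genes deviated by 0.22. They summed to 180 CPM in spleen ILC1 control library 3, where the ribosomal protein genes deviated by -0.12. The part of message length, of other cells and of RNA quality in the movement of the ribosomal protein genes was not tested.

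**Figure D3:**
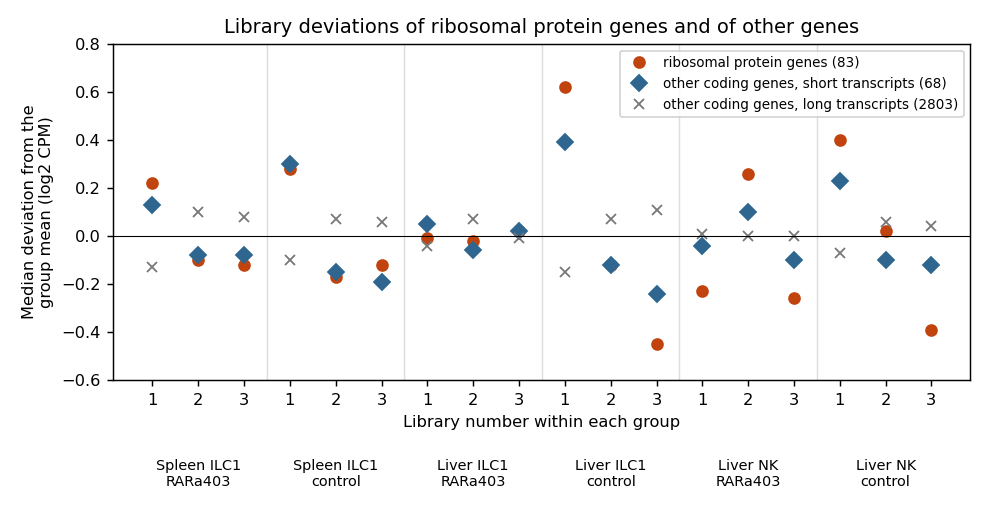
Median deviation of each library from its group mean in log2 CPM, for the 83 ribosomal protein genes, 68 other coding genes with short transcripts and 2803 with long transcripts; in liver NK RARα403 cells the mean is that of libraries 2 and 3. The short genes lie on the same side of 0 as the ribosomal protein genes in the libraries with the largest deviations, such as 0.62 and 0.39 in liver ILC1 control library 1, where the long genes are at -0.15.

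Some genes varied far more than others between libraries of a group. The 5 with the largest SD within groups, leaving out liver NK RARα403 library 1, were Rpl24 at 1.08 on the log2 scale, Rps18 at 0.86, Rpl29 at 0.81, Rps2 at 0.77 and Rpl35a at 0.71, while the lowest SD was 0.20. These SDs include the shared movement. With the library median of the ribosomal protein genes taken off, they were 1.12, 0.53, 0.59, 0.48 and 0.49. Rpl34 at 0.64 and Rps19bp1 at 0.58 then stood above Rps18, Rps2 and Rpl35a. Rpl24 had at most 41 counts in a library. Rps18 and Rps2 encode small subunit proteins, Rpl29 and Rpl35a large subunit proteins.

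Rps18 (ENSMUSG00000008668, chr17:33951999-33956001) was highest in library 1 of each control group. It had 230, 156 and 103 CPM in RARα403 spleen ILC1s and 251, 99.1 and 106 CPM in control spleen ILC1s. It had 221, 184 and 113 CPM in RARα403 liver ILC1s and 368, 106 and 65.5 CPM in control liver ILC1s. In liver NK cells it had 177, 230 and 96.5 CPM in RARα403 libraries and 230, 90.1 and 65.3 CPM in control libraries. Library 3 was the lowest in 5 of the 6 groups, control spleen ILC1s being the exception. Rps2 had 601, 213 and 246 CPM in RARα403 spleen ILC1s and 679, 281 and 246 CPM in control spleen ILC1s, with library 1 standing high in each. In liver ILC1s Rps2 had 435, 235 and 257 CPM in RARα403 libraries and 570, 277 and 156 CPM in control libraries.

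Rpl29 was lowest in library 3 in 5 of the 6 groups, RARα403 spleen ILC1s being the exception. It had 52.7, 114 and 62.2 CPM in RARα403 spleen ILC1s and 133, 133 and 54.7 CPM in control spleen ILC1s. In liver ILC1s it had 102, 98.4 and 55.5 CPM in RARα403 libraries and 149, 119 and 34.9 CPM in control libraries. In liver NK cells it had 77.4, 145 and 60.2 CPM in RARα403 libraries and 130, 92.5 and 38.5 CPM in control libraries. Rpl34, another large subunit gene, was chosen for display after its values were seen. It had 48.7, 28.7 and 67.6 CPM in RARα403 spleen ILC1s and 31.5, 38.7 and 51.0 CPM in control spleen ILC1s. In liver ILC1s Rpl34 had 52.5, 39.6 and 75.4 CPM in RARα403 libraries and 35.7, 55.3 and 40.1 CPM in control libraries. Control library 1 was thus the lowest of its group for Rpl34 in spleen and liver ILC1s, while the ribosomal protein genes as a group were high there. Of their 100-base stretches, 57.3% in Rps18, 58.5% in Rps2, 50.3% in Rpl29 and 22.5% in Rpl34 also occur in other genes.

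**Figure D4:**
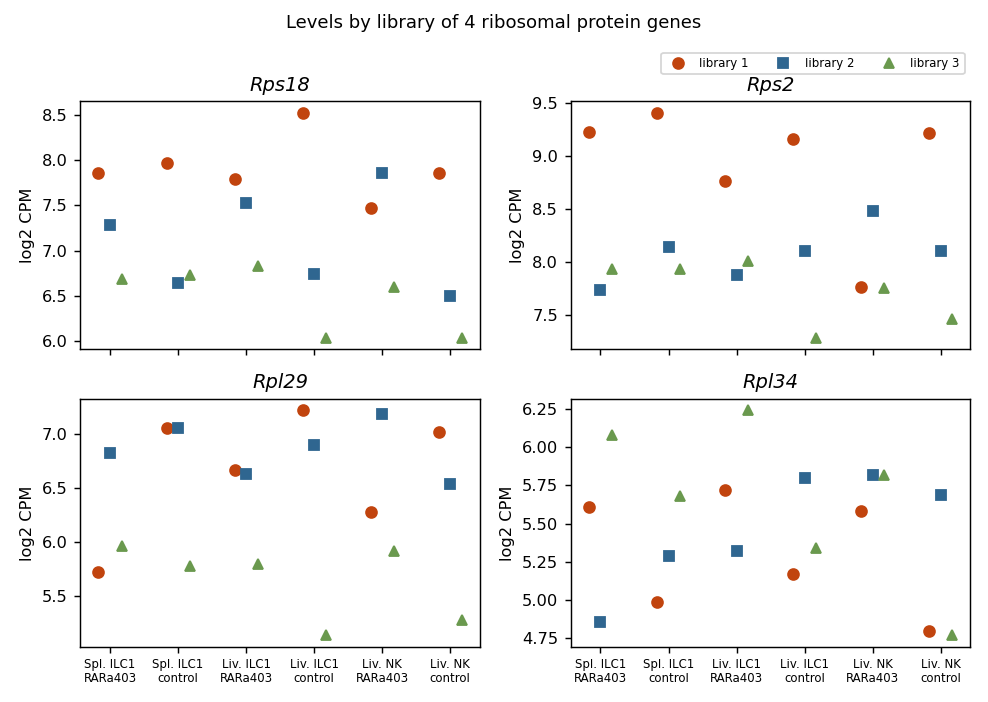
Levels in log2 CPM of Rps18, Rps2, Rpl29 and Rpl34 in every library, with RARα403 left of control; symbols are libraries 1, 2 and 3. Library 1 is highest for Rps2 in 5 of the 6 groups, and library 3 is lowest for Rpl29 in 5 of them.

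The deviations of same-numbered libraries were compared over the 83 genes. Between ILC1s and NK cells of control livers they correlated at 0.50, 0.52 and 0.38 for libraries 1, 2 and 3, against -0.40 to 0.08 for libraries of unlike number. Between control spleen and control liver ILC1s they correlated at 0.24, 0.33 and 0.32, against -0.25 to -0.08. For control spleen ILC1s and control liver NK cells the values were 0.39, 0.05 and 0.37, against -0.37 to 0.04. In each control group the deviations of the 3 libraries from their mean sum to 0 for every gene. Positive values for like numbers therefore draw those for unlike numbers below 0, and the latter are no independent yardstick. Over all 14714 genes tested the same-numbered correlations were 0.02 to 0.12 in these pairs of groups. These are correlations across genes, which are not independent replicates. Between RARα403 and control libraries of a population they ran from -0.28 to 0.39 over the ribosomal protein genes. For RARα403 liver ILC1s and RARα403 liver NK cells the same-numbered values were 0.05, 0.12 and 0.08. They were 0.22, 0.22 and 0.57 for RARα403 spleen and liver ILC1s. For RARα403 spleen ILC1s and liver NK cells they were 0.24, -0.15 and 0.09. The digits of the description codes are the same for same-numbered libraries of a genotype in all 3 populations and differ between the genotypes, and the labels do not say what they stand for.

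Promoters were read for the genes with large and small spread, since the genes moved together as a class. Of the 86 genes, 66 had an entry in the RefSeq promoter table (build GRCm38.p6). In the 250 bases before the annotated start, on either strand, CCGGAAG, a core bound by the ETS factor GABP, occurred in 28.8% of the 66, in 7.83% of all 27025 genes with an entry and in 15.6% of the 10123 other genes tested here. GGGCGG, the core bound by SP1, occurred in 51.5% of the 66, in 35.4% of all genes and in 61.3% of the other genes tested. AAGATGG, bound by YY1, occurred in 7.58% of the 66, in 5.18% of all genes and in 5.28% of the other genes tested. TATAAA occurred in 6.06% of the 66, in 14.3% of all genes and in 8.18% of the other genes tested. A run of 6 or more pyrimidines within 5 bases of the start base was found in 30.3% of the 66, in 8.48% of all genes and in 8.29% of the other genes tested. Genes with several entries were counted if any held the match.

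The 250 bases before the start are shown for Rps18 (chr17:33955666-33955915, minus strand) and Rps2 (chr17:24719813-24720062, plus strand), which varied most among well-counted small subunit genes, and for Rpl4 (chr9:64173137-64173386, plus strand) and Rpl10 (chrX:74270566-74270815, plus strand), which varied little before the library median was taken off. Their SDs were 0.20 and 0.24 with the shared movement included. With it taken off they were 0.29 for Rpl4 and 0.14 for Rpl10, against a median of 0.20. The 4 sequences follow. These are RefSeq sequences of GRCm38.p6, written 5′ to 3′ on the gene's strand, with CCGGAAG and GGGCGG or their reverse complements in capitals.
Rps18: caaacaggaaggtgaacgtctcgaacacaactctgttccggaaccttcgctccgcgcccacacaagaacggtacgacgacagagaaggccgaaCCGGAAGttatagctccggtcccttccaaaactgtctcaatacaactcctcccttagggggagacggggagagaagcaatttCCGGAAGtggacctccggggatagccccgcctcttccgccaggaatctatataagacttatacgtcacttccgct
Rps2: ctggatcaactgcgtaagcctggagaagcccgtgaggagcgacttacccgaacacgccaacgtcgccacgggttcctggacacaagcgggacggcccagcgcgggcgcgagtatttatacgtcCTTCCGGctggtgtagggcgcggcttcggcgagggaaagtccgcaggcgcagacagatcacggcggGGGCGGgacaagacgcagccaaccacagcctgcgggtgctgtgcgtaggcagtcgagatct
Rpl4: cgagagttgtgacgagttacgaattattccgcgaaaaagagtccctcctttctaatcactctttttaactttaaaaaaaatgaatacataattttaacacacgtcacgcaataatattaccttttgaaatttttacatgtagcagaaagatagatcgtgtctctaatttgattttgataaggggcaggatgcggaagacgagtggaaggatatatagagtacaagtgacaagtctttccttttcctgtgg
Rpl10: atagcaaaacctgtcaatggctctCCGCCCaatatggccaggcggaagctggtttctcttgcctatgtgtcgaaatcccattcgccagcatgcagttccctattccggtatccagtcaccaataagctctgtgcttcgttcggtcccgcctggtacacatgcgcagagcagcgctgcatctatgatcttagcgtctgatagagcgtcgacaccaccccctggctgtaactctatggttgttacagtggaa
Rps18 held CCGGAAG at 2 places, Rps2 held it once together with GGGCGG, Rpl10 held GGGCGG once and Rpl4 held neither. Rps18 starts within the bases ccgctctctct, 5 to each side of the start base, and Rpl4 within tgtgggagcag. A match describes the letters and shows no binding.

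No ribosomal protein gene passed the test of RARα403 against control in liver ILC1s. By edgeR's quasi-likelihood test at a Benjamini-Hochberg adjusted p of at most 0.05, 0 of 83 were called and 0.0% of all genes tested were. At an unadjusted p under 0.05 the count was 0 of the 83, against 2.94% of all genes. DESeq2 and limma-voom also called 0 of them, against 0.231% and 0.0% of all genes with an adjusted p. The log2 fold changes ran from -0.88 to 1.06 with a median of -0.27, and 6 of 83 were positive, while the median of all genes was 0.00 and 49.6% of all genes were positive. This lean rested on a single control library: without liver ILC1 control library 1 the median was 0.12, and with libraries 2 and 3 of every group it was 0.14.

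The genes with the smallest p in that comparison show this library directly. Rps24 (ENSMUSG00000025290, chr14:24487125-24496959), a small subunit gene spliced differently between tissues, had 111, 89.0 and 90.8 CPM in RARα403 liver ILC1s, against 277, 136 and 83.5 CPM in control liver ILC1s. Its log2 fold change was -0.77 ± 0.40 (SE, edgeR adjusted p = 1.0), and the groups overlapped. Rpl32, a large subunit gene, had 163, 170 and 191 CPM in RARα403 libraries, against 486, 172 and 167 CPM in control libraries. Rps27 had 72.3, 56.8 and 76.2 CPM in RARα403 libraries, against 196, 60.5 and 66.1 CPM in control libraries. In each case control library 1 was the highest of the 6 libraries. The other control libraries lay near the RARα403 ones for Rpl32 and Rps27, while for Rps24 control library 2 was above all RARα403 libraries too. Rpl36al had 72.3, 53.6 and 75.5 CPM in RARα403 libraries, against 143, 83.4 and 63.3 CPM in control libraries. The groups did not overlap for 2 genes, Rpl23a and Rpl6, both lower in RARα403 libraries, against 4.43% of all genes in that direction and 5.08% higher, where the count of ribosomal protein genes was 0. Rpl6 had 196, 212 and 218 CPM in RARα403 liver ILC1s, against 275, 275 and 223 CPM in control liver ILC1s, a log2 fold change of -0.30 ± 0.29 (edgeR adjusted p = 1.0).

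In liver NK cells 0 of 83 were called between RARα403 and control (edgeR, adjusted p at most 0.05), against 0.0% of all genes, and 0 had an unadjusted p under 0.05, against 9.64% of all genes. Without RARα403 library 1 in the fit 0 of 84 had such a p, against 539 of all 16565 genes then tested. DESeq2 and limma-voom also called 0, against 1.14% and 0.0% of all genes with an adjusted p. The median log2 fold change was -0.03 with 36 of 83 positive, and 0.06 with 52 of 84 positive once RARα403 library 1 was left out. The direction depended on the libraries: the median ran from -0.23 without control library 3 to 0.18 without control library 1, and with libraries 2 and 3 of every group it was 0.26 with 77 of 83 positive. Rpl36a, the parent of Rpl36al, had 64.2, 41.1 and 24.2 CPM in RARα403 NK cells, against 29.9, 27.7 and 17.5 CPM in control NK cells, a log2 fold change of 0.79 ± 0.44 (edgeR adjusted p = 0.582). Rps24 had 218, 138 and 89.9 CPM in RARα403 NK cells, against 122, 89.5 and 70.2 CPM in control NK cells. Rpl34 had 47.4, 56.2 and 56.1 CPM in RARα403 NK cells, against 27.5, 51.1 and 27.0 CPM in control NK cells. Rpl10a, a large subunit gene, had 210, 173 and 128 CPM in RARα403 libraries, against 160, 126 and 77.6 CPM in control libraries. Libraries of the 2 genotypes overlapped for every one of the 83 genes, against 3.77% of all genes without overlap and higher in RARα403 cells and 4.72% lower.

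Liver NK RARα403 library 1 was unlike the rest gene by gene. In it 31 of the 83 ribosomal protein genes lay below all other 17 libraries and 7 above them. Rpl30, a large subunit gene, had 6 counts, or 1.47 CPM, against 94.3 and 82.6 CPM in libraries 2 and 3. Rplp1, a stalk protein, had 9.04 CPM against 92.2 and 66.3 CPM, and Rpl4 had 107 CPM against 1010 and 839 CPM. Rpl36 and Rpl12, also of the large subunit, were the highest of all 18 libraries there, at 6.72 and 6.83 log2 CPM. The SD of the deviations over the ribosomal protein genes was 1.28 in this library and 0.182 to 0.332 in the others. Its deviations were taken from the mean of libraries 2 and 3, while each other library was part of its own group mean. This makes the value of library 1 larger by construction, to an extent not measured. The share of its counts on mitochondrially encoded genes, 0.238%, was also the lowest of the 18.

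In spleen ILC1s 0 of 83 were called between RARα403 and control (edgeR), against 0.0% of all genes. At an unadjusted p under 0.05 it was 0, against 2.89% of all genes. DESeq2 and limma-voom called 0 as well, against 0.140% and 0.0% of all genes. The median log2 fold change was -0.09 with 20 of 83 positive. It was -0.25 without RARα403 library 1 and turned to 0.05, with 48 of 83 positive, without control library 1. Rps6, the small subunit protein that S6 kinases phosphorylate, had 350, 334 and 290 CPM in RARα403 spleen ILC1s, against 528, 336 and 348 CPM in control spleen ILC1s, a log2 fold change of -0.31 ± 0.25 (adjusted p = 1.0). Rpl21 had 71.7, 83.1 and 78.6 CPM in RARα403 libraries, against 115, 102 and 81.3 CPM in control libraries. The groups overlapped for Rps6 and for Rpl21. They did not overlap for 3 genes, Rpl32 and Rpl4 among them, which were lower in RARα403 libraries, against 4.87% of all genes in that direction and 4.12% higher, where the count was 0. Rpl4 had 862, 902 and 782 CPM in RARα403 spleen ILC1s, against 1217, 938 and 939 CPM in control spleen ILC1s.

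Control ILC1s and NK cells of the liver are the pair of groups in which genes passed the test, with 0.605% of all genes called, and 0 of the 83 ribosomal protein genes were among them (edgeR, adjusted p at most 0.05). At an unadjusted p under 0.05 there were 0 of the 83, against 7.91% of all genes. Without liver NK RARα403 library 1 in the shared fit 4 of 84 had such a p, against 11.3% of all genes, and 0 were called, against 1.75% of all genes. DESeq2 and limma-voom called 0 of the 83, against 3.25% and 3.26% of all genes with an adjusted p. The median log2 fold change was 0.24 with 74 of 83 positive, against 0.03 and 52.3% over all genes. It was -0.14 without liver ILC1 control library 1 and 0.48 without liver NK control library 1. With both of these left out, along with library 1 of the other groups, it was 0.10 with 51 of 83 positive, and with the library number as a block 0.22. Taken by number, the share of counts was higher in ILC1s each time, with 2.42, 1.58 and 1.23% in ILC1 libraries 1, 2 and 3, against 1.83, 1.45 and 1.11% in NK cell libraries. Rps24 had 277, 136 and 83.5 CPM in ILC1s, against 122, 89.5 and 70.2 CPM in NK cells, a log2 fold change of 0.82 ± 0.40 (adjusted p = 0.649). Rps27a, a fusion of ubiquitin with a small subunit protein, had 272, 150 and 127 CPM in ILC1s, against 145, 125 and 76.6 CPM in NK cells. Rpl9 had 484, 265 and 186 CPM in ILC1s, against 244, 205 and 155 CPM in NK cells. Rpl38, a large subunit gene known for its part in patterning the mouse skeleton, had 56.4, 30.7 and 26.9 CPM in ILC1s, against 31.7, 22.8 and 17.1 CPM in NK cells. ILC1 and NK libraries overlapped for all of these, while each ILC1 library lay above the NK cell library of its number. For Rpl30 they did not, with 122, 119 and 115 CPM in ILC1s, against 98.9, 86.5 and 70.6 CPM in NK cells and a log2 fold change of 0.47 ± 0.72 (adjusted p = 1.0). It was the only 1 of the 83 without overlap, against 8.71% of all genes higher and 8.20% lower in ILC1s. In the fit without liver NK RARα403 library 1, where Rpl30 had 6 counts, the same fold change had an SE of 0.20 and an adjusted p of 0.386.

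Between control spleen and control liver ILC1s 0 of 83 were called (edgeR), against 0.0% of all genes. At an unadjusted p under 0.05 it was 0, against 3.18% of all genes, and DESeq2 and limma-voom called 0, against 0.182% and 0.0% of all genes. The median log2 fold change was -0.10 with 30 of 83 positive. It was 0.25 without liver ILC1 control library 1 and 0.11 with libraries 2 and 3 of every group. Rpl26, a large subunit gene, had 118, 67.8 and 75.3 CPM in spleen ILC1s, against 177, 98.0 and 87.4 CPM in liver ILC1s, a log2 fold change of -0.47 ± 0.32 (adjusted p = 1.0). The groups overlapped for this gene and for the other 82, against 4.82% of all genes without overlap and higher in spleen and 4.15% lower. For Rps27l the fold change was -0.87 ± 0.59, for Rps24 -0.57 ± 0.40 and for Rps27 -0.61 ± 0.43 on the log2 scale. All of these comparisons with control liver ILC1s share the same 3 control libraries.

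**Figure D5:**
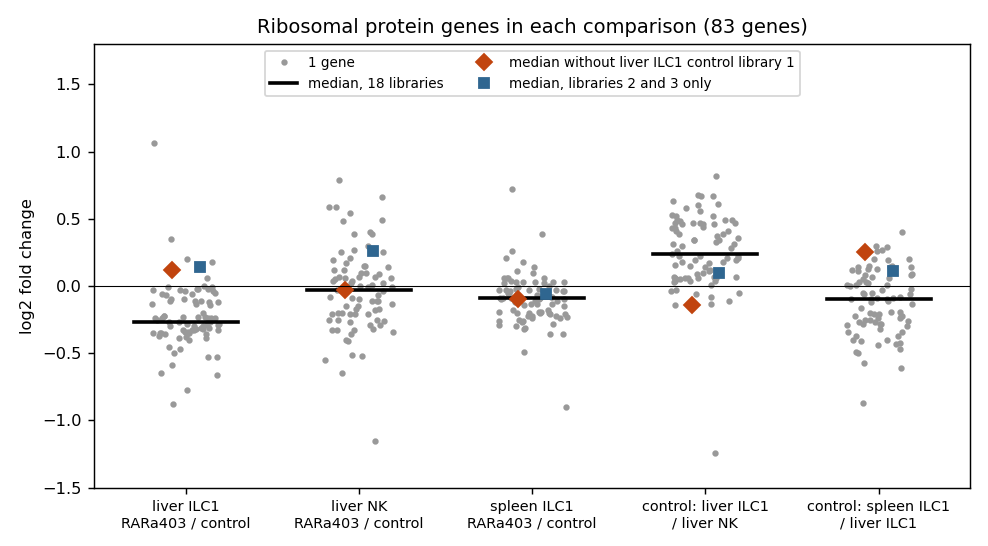
Log2 fold changes of the 83 ribosomal protein genes in the 5 comparisons of groups (grey points, 1 per gene), with their median from 18 libraries (black line), without liver ILC1 control library 1 (red diamonds) and from libraries 2 and 3 of each group (blue squares). The median in liver ILC1s is -0.27 with all libraries, 0.12 without that library and 0.14 with libraries 2 and 3.

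The effect of RARα403 was also compared between populations. Between liver ILC1s and liver NK cells 0 of 83 were called (edgeR), against 0.0% of all genes, and 1 had an unadjusted p under 0.05, against 6.20% of all genes. DESeq2 and limma-voom called 0, against 0.302% and 0.0% of all genes. The 1 gene was Rps24, whose log2 difference of effects was -1.44 ± 0.57 (edgeR adjusted p = 0.798), lower in liver ILC1s. Without liver NK RARα403 library 1 it was -1.05 ± 0.51 (edgeR adjusted p = 1.0). The next by p, with that library in the fit, were Rpl36a at -1.10 ± 0.61, Rpl38 at -0.93 ± 0.58 and Rpl36al at -0.78 ± 0.50. Between spleen and liver ILC1s 0 of 83 were called (edgeR), against 0.0% of all genes, and 0 had an unadjusted p under 0.05, against 2.70% of all genes. DESeq2 and limma-voom called 0 there too, against 0.126% and 0.0% of all genes. The next after Rps27l by p were Rps21 at 0.72 ± 0.68, Rps24 at 0.58 ± 0.57 and Rps13 at 0.61 ± 0.61 on the log2 scale.

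These counts of 0 do not show that the levels were the same. The median SE of a log2 fold change was 0.37 for the ribosomal protein genes, and the 95% interval reached 0.79 to each side of the estimate at the median gene. In RARα403 against control liver ILC1s, 32 of the 83 intervals lay wholly within a log2 fold change of 1 in either direction, against 42 in liver NK cells and 48 in spleen ILC1s. For the other genes a 2-fold change lay within the interval. Without liver NK RARα403 library 1 in the shared fit the median SE was 0.31 in liver and spleen ILC1s and 0.35 in liver NK cells. Of 84 intervals, 50 then lay within that range in liver ILC1s, 56 in liver NK cells and 67 in spleen ILC1s.

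Small and large subunit genes are given side by side, with no test of the difference between them. The median log2 fold change was -0.27 for the 31 small subunit genes and -0.24 for the 46 large subunit genes in liver ILC1s of RARα403 against control. For liver NK cells these medians were 0.01 and -0.04, and for spleen ILC1s -0.06 and -0.11. In control liver ILC1s against NK cells it was 0.21 and 0.27, and in control spleen against liver ILC1s -0.10 for each.

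Genes that work with the ribosome were described from lists of 5 to 78 genes: elongation factors, initiation factors, other ribosome components, assembly factors, RNA polymerase I, hosts of small nucleolar RNAs, regulators of ribosomal protein messages and mitochondrial ribosomal proteins. No gene of these lists passed the edgeR test in any of the 7 comparisons, in either direction. Among 77 mitochondrial ribosomal protein genes tested, 9 had an unadjusted p under 0.05 in liver NK cells of RARα403 against control, where 9.64% of all genes did. Among 19 regulators of ribosomal protein messages there were 5, against the same 9.64%. These counts are from the fit that includes liver NK RARα403 library 1. Mtor, the kinase that releases these messages for translation, had 8.81, 5.14 and 4.88 log2 CPM in RARα403 NK cells, against 4.61, 5.13 and 5.34 log2 CPM in control NK cells. Larp1, which binds their pyrimidine start, had 8.98, 6.51 and 6.79 log2 CPM in RARα403 NK cells, against 6.60, 6.34 and 5.89 log2 CPM in control NK cells. Tsc1, a brake on mTOR, had 9.13, 5.50 and 5.53 log2 CPM in RARα403 NK cells, against 4.65, 5.61 and 5.32 log2 CPM in control NK cells. All of these high values were in library 1, and for Mtor and Tsc1 libraries 2 and 3 lay within the range of the controls. The edgeR adjusted p was 0.428 for each of the 3 genes.

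Outside that library, Bop1, a factor of large subunit assembly, had 5.58, 5.95 and 6.44 log2 CPM in RARα403 spleen ILC1s, against 6.85, 6.93 and 6.46 log2 CPM in control spleen ILC1s, a log2 fold change of -0.73 ± 0.30 (edgeR adjusted p = 1.0). Mrps9, of the small mitochondrial subunit, had 3.66, 4.99 and 4.68 log2 CPM in RARα403 spleen ILC1s, against 5.65, 5.47 and 5.66 log2 CPM in control spleen ILC1s, a log2 fold change of -1.06 ± 0.37 (edgeR adjusted p = 1.0). For Bop1 and Mrps9 the groups did not overlap, against 4.87% of all genes without overlap and lower in RARα403 spleen ILC1s. Both were named for a small p, from lists of 37 and 77 genes tested. The elongation factor gene Eef1b2 had 7.38, 7.16 and 6.74 log2 CPM in control liver ILC1s, against 6.77, 6.34 and 6.25 log2 CPM in control liver NK cells, and the groups overlapped. Annotated ribosomal protein pseudogenes, 268 in the table, took 0.0327 to 0.0818% of the counts, and the mitochondrial ribosomal protein genes 0.280 to 0.405%.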

How the data were processed

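The deposited table holds whole-number counts per gene for 18 libraries, made by the authors with fastp 0.23.0, HISAT2 2.1.0 against mm10 and featureCounts of Subread 1.6.5, per the submitters' processing notes. The sources used here give neither the annotation nor the strand setting. Of 46078 genes, 849 had no symbol and held 0.0544% of the counts. All table columns belonged to a sample. Coordinates and lengths came from the GENCODE annotation of GRCm38.

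Genes were kept with filterByExpr (minimum count 10), which left 14714, scaled by TMM, and fitted with a mean per group over 18 libraries in edgeR 4.0.16 (R 4.3.3), with Benjamini-Hochberg adjustment over all genes tested and a threshold of 0.05. CPM values are TMM-scaled, and log2 CPM has a prior count of 2. DESeq2 1.42.0 and limma 3.58.1 were alternatives. The steps were tested on simulated data. The 3 counts that set the level of a floor came to 0.332 to 0.869 CPM by library totals, and cover counting error only.

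The ribosomal protein genes and all lists were chosen with earlier results of these data known. Named are paralogs and their partners, the 4 smallest p per comparison, the 5 highest and lowest levels per kilobase, the 5 largest spreads, genes failing the filter and up to 3 genes per list by p. Of the genes so named or chosen, 2 are not reported here. Genes without overlap, Rpl10 and Rpl34 in the account of spread, and the genes of liver NK RARα403 library 1 were chosen after their values were seen. Between RARα403 and control libraries the replicate numbers were not taken as pairs. Between control groups same-numbered libraries correlated at 0.05 to 0.52 over the ribosomal protein genes and at 0.12 at most over all genes. The fit with the number as a block therefore stayed an alternative.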

Additional observations from a re-analysis of the deposited data

How the results depend on the processing

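The number of ribosomal protein genes called was 0 in all 7 comparisons under all 29 other settings: DESeq2, RLE factors, library totals only, TMM without these genes, no filter, only the groups compared, liver NK RARα403 library 1 left out, libraries 2 and 3 only, a replicate block, a term for the opening code number, limma-voom, and each of 18 libraries left out in turn. Over all genes these settings called for RARα403 against control at most 43 genes in liver ILC1s, 32 in spleen ILC1s and 523 in liver NK cells, each without the filter, and 0 in 25, 26 and 21 of the 29 settings. For control liver ILC1s against NK cells they called 18 to 479, the most with limma-voom. For control spleen against liver ILC1s and both differences of effects they called at most 78, 268 and 41. Library totals moved the median of all genes in liver NK cells by RARα403 to -0.11, and that of the ribosomal protein genes to -0.16. With limma-voom the median in liver ILC1s was -0.04. Without liver ILC1 control library 1, the median log2 fold change of the ribosomal protein genes was 0.12 in liver ILC1s, -0.14 for control ILC1s against NK cells, 0.17 for the difference of effects between liver ILC1s and NK cells and -0.24 for that between spleen and liver ILC1s. Over the libraries left out, the log2 fold change in liver ILC1s ran from -0.91 to 0.04 for Rpl32 and from -0.94 to 0.11 for Rps27 (0.09 and 0.07 with libraries 2 and 3 only). In control spleen against liver ILC1s it ran from -0.89 to 0.01 for Rps24 and from -0.90 to 0.15 for Rps27 (0.03 with libraries 2 and 3 only). Positive values came without liver ILC1 control library 1. The change follows from removing a library with high levels of these genes. Leaving out a library moved the mean share of counts to between 1.02 and 1.56% in RARα403 liver NK cells and between 1.41 and 2.00% in control liver ILC1s. The median level was 65.1 CPM per kilobase by all exons, 102 by the longest transcript and 145 by the main transcript, a length chosen after seeing the data, because those lengths are shorter.

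With the replicate number as a block 0 ribosomal protein genes were called in each comparison, and the median in liver ILC1s was -0.20. Over all genes, control ILC1s against NK cells gave 52 higher and 17 lower calls with the block and 63 and 26 without it. Same-numbered libraries correlated at -0.03 to 0.25 over all genes between RARα403 and control, so these were not taken as pairs, while between control groups each library correlated best with its own number. Depth limits Rpl24, Rpl39l and Rpl3l most, with at most 41, 50 and 6 counts.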
